A study of Homo sapiens with 9 samples.

Results

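H1975 cells carrying gRNA2, 1 of the 2 guide RNAs that the labels name for TRIDENT, which the series' title calls a long noncoding RNA, were compared with the same cells carrying a non-targeting guide. H1975 is an established line of a human lung adenocarcinoma that carries mutations of the receptor EGFR, and all groups held dCas9-KRAB, a nuclease-dead Cas9 fused to a transcriptional repressor, under a doxycycline-inducible promoter. The members were chosen by their titles and are 6 of the 9 libraries of the series, 3 with gRNA2 and 3 with the non-targeting guide (the control). The other 3 carry gRNA1, and their values are given beside some of the results. Every culture, the controls included, had 4 ug/ml doxycycline for 72 h, Tet-free serum, G418 and puromycin. Total RNA depleted of ribosomal RNA was sequenced, with 16918432 to 26466536 reads assigned per library. Whether the 3 libraries of a group come from separate cultures is not stated in the labels, so p-values measure only the spread between these libraries, which may be technical.

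dCas9-KRAB is brought by its guide to a promoter, where KRAB recruits TRIM28 and enzymes that compact chromatin. A cell line that grows well expresses genes for DNA replication, histones and mitosis in waves along its cell cycle, and a bulk level of such a gene depends on how many cells are in the phase that expresses it. Translation and stress programmes are read from ribosomal proteins, from the transcription factor ATF4, which raises amino acid synthesis and transport genes, and from chaperones. Because the libraries are bulk RNA, fewer cells of a kind and less RNA per cell cannot be told apart.

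The RNA matched to the target by name did not differ beyond the threshold in the libraries labelled gRNA2, so repression of the target is not shown here. TRIDDENT, the RefSeq symbol with TRIDENT among its synonyms (chr16:3931217-3950586 of hg38, minus strand), had 2.62, 2.28 and 2.85 CPM in the controls and 2.52, 2.29 and 2.52 in the libraries labelled gRNA2. CPM are read counts relative to the library size as scaled by edgeR. The groups overlapped, and the ratio was 0.945 (95% interval 0.753 to 1.19, adjusted p = 0.81 by edgeR's quasi-likelihood test with Benjamini-Hochberg adjustment over all genes). No guide sequence was used here, so the match was not tested, and every difference below is one between libraries labelled gRNA2 and libraries labelled control. RefSeq lists the same synonym for FOXM1, a transcription factor of mitotic genes (chr12:2857681-2877155, minus strand). FOXM1 is a protein-coding gene, whereas the series' title calls TRIDENT a long noncoding RNA. FOXM1 had 61.6, 59.8 and 62.7 CPM in the controls and 48.3, 44.5 and 45.9 in the libraries labelled gRNA2. It was lower in all 3, at 0.753-fold (interval 0.703 to 0.807, adjusted p = 0.000132). In the libraries labelled gRNA1 it was at 0.878-fold against the same controls (adjusted p = 0.0249). TRIM28, the corepressor bound by KRAB, was at 0.809-fold (adjusted p = 0.00227; 0.249 with an offset for transcript length), and EGFR at 0.977-fold (interval 0.935 to 1.02, adjusted p = 0.548).

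Of 19658 genes tested, 1659 (8.44%) passed an adjusted p of 0.05, 726 of them (3.69%) higher and 933 (4.75%) lower in the libraries labelled gRNA2. The differences were small: 142 of the higher genes and 34 of the lower ones differed by at least 1.5-fold, and 36 and 10 by at least 2-fold (0.722%, 0.173%, 0.183% and 0.0509% of the genes tested). All 3 libraries of a group lay beyond all 3 of the other for 27.4% of the genes tested. The number called fell to 1023, 900 and 792 without control replicates 1, 2 and 3, and to 671 without gRNA2 replicate 2, the deepest library. Leaving out gRNA2 replicate 3, the shallowest library and the one that stood apart on the second principal component (15.5% of the variance), gave 1144. An offset for the average transcript length, which changes with the isoforms that a library holds, left 434 genes.

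The cell type markers were those of an epithelial line. The 11 epithelial genes, among them EPCAM, CDH1 and the keratins, summed to 2570 to 2700 TPM (a level per transcript length) in the controls and 2620 to 2650 in the libraries labelled gRNA2, and none was below 1 TPM. Among them the keratins KRT8 and KRT19 fell. Of 9 alveolar and club cell genes, 5 stayed below 0.1 TPM in every library. Others were expressed: the lung lineage factor gene NKX2-1 had 36.6 to 40.3 TPM and SCGB3A2 19.5 to 24.1 TPM over the 6 libraries. Neither differed beyond the threshold. This list summed to 61.2 to 63.3 TPM in the controls and 59.2 to 66.9 in the libraries labelled gRNA2. Markers of blood, endothelial and stromal cells, 10 of 16 of them below 1 TPM, summed to 17.4 to 18.9 and 18.4 to 20.7 TPM. All 7 squamous and neuroendocrine markers were below 1 TPM. Called higher at low levels were the alveolar protease gene NAPSA (1.46-fold, adjusted p = 0.0286), the endothelial cadherin gene CDH5 (2.39-fold, adjusted p = 0.00689) and, in the list of squamous and neuroendocrine genes, SOX2 (2.24-fold, adjusted p = 0.00398).

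Genes of mitosis were lower in the libraries labelled gRNA2. Of 35 mitotic cyclins, kinases and checkpoint genes, 24 fell and 0 rose, with a median log2 change of -0.30 against 0.01 over all genes tested. Of 35 spindle motors, microtubule and cytokinesis factors, 30 fell and 0 rose, also with a median of -0.30. The list medians of the 3 libraries labelled gRNA2 were -0.27, -0.30 and -0.29 for the mitotic cyclins and -0.34, -0.29 and -0.28 for the spindle, measured from the mean of the controls, whose own medians lay between -0.02 and 0.01. Without gRNA2 replicate 2 the mitotic count was 15, and the spindle count stayed between 24 and 31 whichever library was left out. With the transcript length offset 10 and 12 members fell.

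CCNB1, cyclin B1, the cyclin that drives entry into mitosis, had 89.9, 89.3 and 90.8 CPM in the controls and 60.4, 60.4 and 62.4 in the libraries labelled gRNA2. The groups were far apart relative to their spread, at 0.678-fold (interval 0.637 to 0.722, adjusted p = 4.89e-06). CDC20, which activates the ubiquitin ligase that ends mitosis, had 49.8, 47.6 and 47.5 CPM against 36.5, 32.4 and 31.4, and fell to 0.695-fold (adjusted p = 0.00011). It shares 20.3% of its 31-base words with transcripts of other genes, so some of its reads may be split. The kinases PLK1 (0.746-fold, adjusted p = 0.000751), AURKA (0.777-fold, adjusted p = 0.000526) and CDK1 (0.808-fold, adjusted p = 0.0042) fell as well.

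ANLN, anillin, the scaffold of the cytokinetic ring, had 337, 356 and 342 CPM in the controls and 236, 253 and 269 in the libraries labelled gRNA2, which all lay lower (0.731-fold, interval 0.686 to 0.78, adjusted p = 3.12e-05). TPX2, which activates AURKA on spindle microtubules, went from 117, 119 and 119 CPM to 88.9, 90.0 and 93.5 (0.766-fold, adjusted p = 6.08e-05). The proliferation marker MKI67 was at 0.731-fold (adjusted p = 1.39e-05) and the topoisomerase TOP2A at 0.808-fold (adjusted p = 0.000541).

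Kinetochore and centromere genes had 13 of 39 lower and 0 higher (median -0.22), among them the motor CENPE at 0.826-fold (adjusted p = 0.0041), the scaffold KNL1 at 0.822-fold (adjusted p = 0.00616) and CENPF at 0.81-fold (adjusted p = 0.000397). Without control replicates 1, 2 or 3 that count was 7, 7 and 8, without gRNA2 replicate 2 it was 5, and with the length offset it was 1. Condensin and cohesin, the complexes that fold and hold sister chromatids, had 11 of 21 lower (7 without control replicate 3, 3 with the length offset), led by NCAPD2 at 0.771-fold (adjusted p = 3.12e-05). Centriole duplication genes had 2 of 16 lower, PLK4 (0.842-fold, adjusted p = 0.0193) and TUBG1 (0.841-fold, adjusted p = 0.0377). That count is near the background, as 6.6% of protein-coding genes fell at a mean log2 CPM of 4 to 6 and 12.3% at 6 to 8. PLK4 lost its call with the length offset (adjusted p = 0.891), and its sign turned there. The number of centriole genes called was 0 without control replicate 2 or gRNA2 replicate 2, 1 without control replicate 1 or 3 or gRNA1 replicate 1 or 2, and 3 without gRNA2 replicate 1.

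Replication genes were lower in part. Of 53 origin and replisome genes, 21 fell and 1 rose, with a median of -0.17. The sliding clamp PCNA had 43.0, 45.3 and 49.9 CPM in the controls and 34.3, 36.2 and 34.5 in the libraries labelled gRNA2, which did not overlap (0.759-fold, adjusted p = 0.000774). The helicase subunit MCM4 was at 0.805-fold (adjusted p = 0.00104). The member that rose, the origin recognition subunit ORC4, was at 1.1-fold (adjusted p = 0.0446) and turned with the length offset. Calls in this list numbered 13, 12 and 14 without control replicate 2, control replicate 3 and gRNA2 replicate 2, and 2 with the length offset. For deoxynucleotide synthesis 7 of 27 fell, and 1 with the length offset, including the ribonucleotide reductase subunits RRM1 and RRM2 at 0.852-fold and 0.811-fold (adjusted p = 0.00259 and 0.000886). Of 18 G1 cyclins, CDKs and their inhibitors, 2 fell, CKS2 and CDKN3, a number that was 1 and 0 without control replicates 2 and 3, 0 without gRNA2 replicate 2 and 3 without gRNA2 replicate 1. The G1 count is near the shares of protein-coding genes that fell, 6.6% at a mean log2 CPM of 4 to 6 and 12.3% at 6 to 8. CCND1, a D-type cyclin of G1, was at 0.977-fold (adjusted p = 0.577).

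Replication-dependent histone genes had the lowest list median of the 51 lists. These genes make histones in S phase, and most of their mRNAs end in a stem-loop without a poly(A) tail, which a library of total RNA retains. Of 62 measured, 43 fell and 1 rose, with a median log2 change of -0.47, and 26 and 0 with the length offset. H1-5, a linker histone, had 23.4, 21.8 and 26.1 CPM in the controls and 11.8, 12.2 and 11.4 in the libraries labelled gRNA2. Each of the latter was well below each control, at 0.497-fold (interval 0.446 to 0.554, adjusted p = 3.54e-06). The core histone gene H3C2 went from 10.9, 10.5 and 10.2 CPM to 6.10, 5.88 and 5.65 (0.559-fold, adjusted p = 3.12e-05), and H1-2 from 110, 111 and 107 CPM to 85.2, 87.0 and 89.2 (0.795-fold, adjusted p = 0.000112). H2BC26, the member that rose, was low, at 1.02, 1.02 and 1.01 CPM against 2.14, 1.68 and 1.56 (1.78-fold, adjusted p = 0.0206). In all, 44 calls became 29 without control replicate 1 and 22 without gRNA2 replicate 2. The histone copies resemble each other, and the reads of H2BC10, H2BC13, H2BC17 and H2AC17, which share 25.1% to 87.1% of their 31-base words with other genes, may be split among them. SLBP, the protein that binds the histone stem-loop, was at 0.909-fold (adjusted p = 0.0943).

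Set directly against the libraries labelled gRNA1, where 6.22% of the genes tested differed (3.12% higher and 3.1% lower), 43 of the 62 histone genes, 28 of 35 spindle genes and 16 of 35 mitotic genes were lower in the libraries labelled gRNA2, and 0, 0 and 1 were higher. The median changes of these lists in the libraries labelled gRNA1, measured against the same 3 controls, were 0.04, -0.04 and -0.11. The plot of gene lists by library gives the medians of 23 lists.

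**Figure D1:**
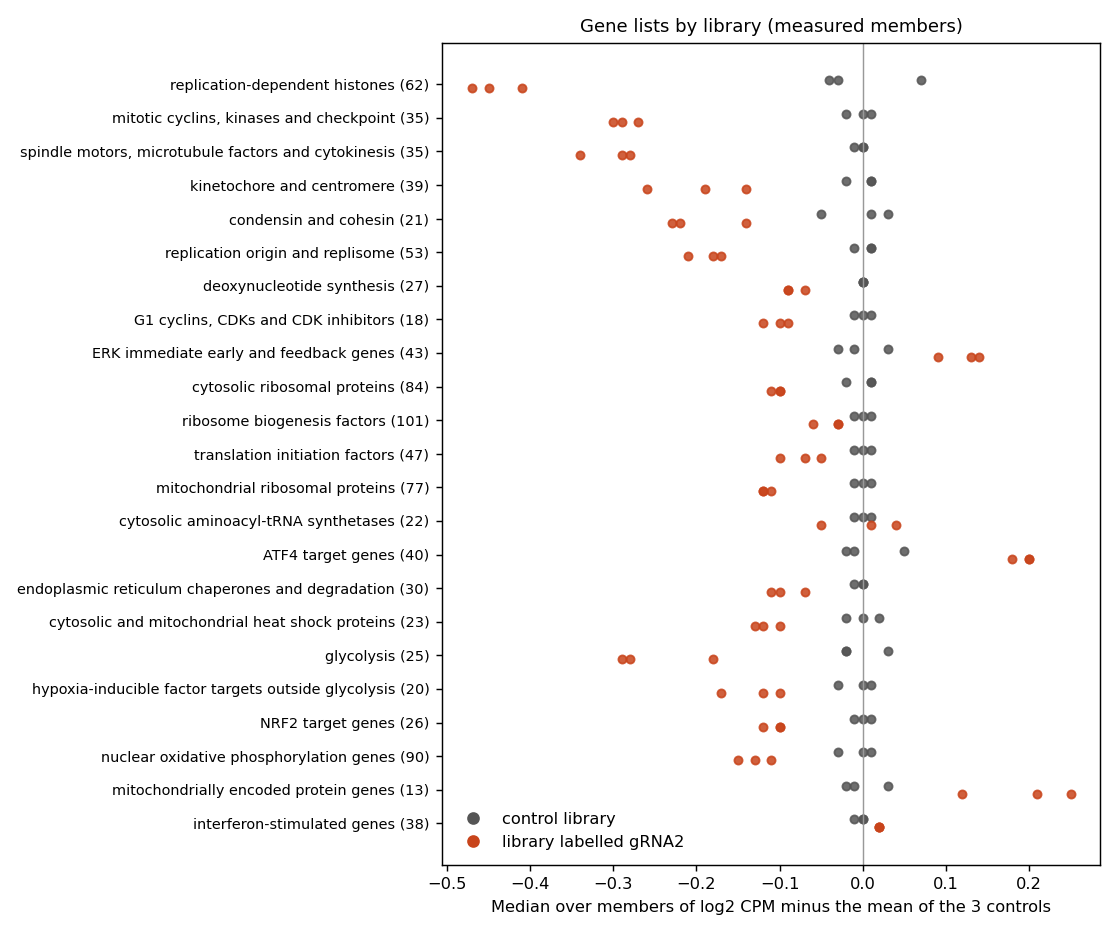
Each point is 1 library: the horizontal axis is the median, over a list's measured members (number in brackets), of log2 CPM minus the mean of the 3 controls, with controls in grey and libraries labelled gRNA2 in orange. Histone, mitotic, spindle and glycolysis lists sit left of every control and the ATF4 and ERK lists right of every control in all 3 libraries labelled gRNA2.

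Promoter sequences of leading members are shown because these lists are known for shared promoter elements. Mitotic genes are known for the CHR and CCAAT box and histone genes for the CCAAT box. Glycolytic genes are known for the E-box and hypoxia core and ATF4 targets for the amino acid response element. The sequences are the 250 bases before the RefSeq start (GRCh38.p14), written 5′ to 3′ on the gene's strand. Capitals mark each match on either strand to the motifs searched. The CHR is TTTGAA or, in its variant, TTCGAA. The CCAAT box is spelled by its name. The E2F site was searched as TTGGCGC, with TTCGCGC and also TTCCCGC as variants. The amino acid response element is TGATGNAA. The hypoxia core is ACGTG and the E-box is CACGTG, and every E-box match also holds the hypoxia core.
CCNB1, chr5:69166900-69167149, plus strand: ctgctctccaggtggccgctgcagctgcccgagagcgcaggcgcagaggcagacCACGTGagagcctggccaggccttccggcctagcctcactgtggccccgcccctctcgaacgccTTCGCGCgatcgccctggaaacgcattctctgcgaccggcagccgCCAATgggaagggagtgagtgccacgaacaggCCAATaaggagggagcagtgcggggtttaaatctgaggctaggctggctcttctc
ANLN, chr7:36389612-36389861, plus strand: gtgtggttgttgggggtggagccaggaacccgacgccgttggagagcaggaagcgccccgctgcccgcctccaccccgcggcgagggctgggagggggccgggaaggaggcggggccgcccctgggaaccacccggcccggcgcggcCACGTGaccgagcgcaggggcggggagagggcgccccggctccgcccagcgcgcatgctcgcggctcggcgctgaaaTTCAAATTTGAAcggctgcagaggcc
H1-5, chr6:27867589-27867838, minus strand: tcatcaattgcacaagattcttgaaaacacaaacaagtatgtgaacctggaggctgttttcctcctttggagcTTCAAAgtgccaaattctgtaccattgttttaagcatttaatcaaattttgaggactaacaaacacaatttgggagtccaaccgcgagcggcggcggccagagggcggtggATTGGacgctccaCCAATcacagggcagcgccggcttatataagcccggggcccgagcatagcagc
LDHA, chr11:18394313-18394562, plus strand: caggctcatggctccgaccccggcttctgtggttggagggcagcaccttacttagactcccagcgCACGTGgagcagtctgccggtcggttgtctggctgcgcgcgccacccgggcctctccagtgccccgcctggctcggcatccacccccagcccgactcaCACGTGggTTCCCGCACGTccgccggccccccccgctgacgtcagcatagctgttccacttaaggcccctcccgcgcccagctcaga
CHAC1, chr15:40953221-40953470, plus strand: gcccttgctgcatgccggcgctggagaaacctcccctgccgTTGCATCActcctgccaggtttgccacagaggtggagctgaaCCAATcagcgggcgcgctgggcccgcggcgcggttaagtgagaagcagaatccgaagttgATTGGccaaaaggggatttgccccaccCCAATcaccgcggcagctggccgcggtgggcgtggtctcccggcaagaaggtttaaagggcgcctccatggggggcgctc

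Counted from the start, CCNB1 had CCAAT boxes on its own strand at -87 and -55, an E2F match at -132 and no CHR match. ANLN had CHR matches on its own strand at -20 and on the other strand at -26. H1-5 had a CCAAT box on its own strand at -53, another on the other strand at -66 and a CHR match at -177. LDHA had CACGTG at -185 and -87, and CHAC1 had CCAAT at -167, -107 and -80 and TGATGNAA on the other strand at -209. Promoters of 300 bases, 250 before and 50 after the start, were found for 12326 tested genes. CHR letters were in 16.0% of them, in 75.0% of 32 spindle promoters, 59.3% of 27 mitotic promoters and 36.8% of 57 histone promoters. CCAAT was in 42.6% of all and in 75.0%, 88.9% and 86.0% of those lists. The E2F letters were in 20.1% of all and in 74.5% of 47 replication promoters, TGATGNAA in 2.90% of all and in 30.3% of 33 ATF4-target promoters, and ACGTG in 30.9% of all and in 63.6% of 22 glycolysis promoters. These shares describe the lists as chosen, and of all 765 promoters of genes called lower, 21.3% held CHR and 52.4% CCAAT. A match of letters is not a bound site.

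Some genes downstream of growth factor signalling rose. Of 43 immediate early and feedback genes of the ERK pathway, which EGFR activates, 10 rose and 0 fell (3.69% of all genes tested rose), with a median of 0.12, and 13 of the 43 estimates were below 0. EGR1, an early transcription factor, had 62.8, 60.9 and 57.7 CPM in the controls and 109, 97.1 and 103 in the libraries labelled gRNA2. The groups were well apart, at 1.7-fold (interval 1.58 to 1.83, adjusted p = 1.21e-06). MYC, a transcription factor that drives growth, had 252, 236 and 227 CPM against 341, 334 and 323, all higher (1.4-fold, interval 1.31 to 1.48, adjusted p = 1.15e-05). The EGFR ligands EREG and AREG were at 1.83-fold and 1.35-fold (adjusted p = 5.3e-06 and 0.00158), and the ERK phosphatase DUSP6, at 3.91 to 6.31 CPM, at 1.48-fold (adjusted p = 0.00549). The other members that rose were ERRFI1, KLF4, DUSP5, DUSP1 and JUN. Against the libraries labelled gRNA1, 15 members were higher and 0 lower. In those libraries 13 of the 43 fell and 1 rose against the same controls, with a median of -0.09. The 10 calls for gRNA2 against the control were 6 without control replicate 3 and 4 with the length offset.

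Near these, CCN1 and CCN2, secreted matrix proteins, were at 1.43-fold and 2.13-fold (adjusted p = 1.46e-06 and 1.95e-06), and fibronectin, FN1, had 158, 154 and 151 CPM in the controls and 201, 203 and 204 in the libraries labelled gRNA2 (1.31-fold, adjusted p = 1.38e-05). TGFBI, another matrix protein, was lower at 0.823-fold (adjusted p = 6.23e-05). CD274, which encodes the immune checkpoint ligand PD-L1 and was chosen after its values were seen, had 48.4, 53.6 and 51.4 CPM against 77.4, 77.6 and 79.8 (1.53-fold, interval 1.42 to 1.64, adjusted p = 8.34e-06).

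Some ribosomal protein genes were slightly lower. Of 84 cytosolic ribosomal protein genes, 24 fell and 0 rose, with a median of -0.10, and 79 of the 84 estimates were below 0. Of all protein-coding genes, 6.6% of those with a mean log2 CPM of 4 to 6 fell. The share was 12.3% for those at 6 to 8 and 27.6% for those above 8. The count of this list, and the counts of lower genes in the lists below, are to be read against these shares. The library medians were -0.11, -0.10 and -0.10 against -0.02 to 0.01 in the controls. RPSA, a protein of the small subunit, had 919, 889 and 909 CPM in the controls and 782, 762 and 748 in the libraries labelled gRNA2, where each was lower (0.844-fold, interval 0.806 to 0.884, adjusted p = 0.000319, 27.5% of 31-base words shared with other genes). Ribosomal protein genes have many processed pseudogenes, so their reads may be split. The number called depended on single libraries: it was 7, 11 and 5 without control replicates 1, 2 and 3, 16 without gRNA1 replicate 2, 4 and 13 without gRNA2 replicates 2 and 3, 5 with the length offset, 14 among protein-coding genes alone and 37 with DESeq2.

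EEF1A1, which brings aminoacyl-tRNA to the ribosome, went from 6710, 6660 and 6890 CPM to 5990, 6030 and 6050 without overlap (0.892-fold, interval 0.863 to 0.923, adjusted p = 0.00064). EIF5A, an elongation factor, was at 0.814-fold (adjusted p = 0.000751). Initiation factors had 10 of 47 lower and 0 higher (median -0.07), with the helicase EIF4A1 at 0.878-fold (adjusted p = 0.00146) and the scaffold EIF4G1 at 0.874-fold (adjusted p = 0.0085). Mitochondrial ribosomal proteins had 12 of 77 lower and 0 higher (median -0.10). These counts became 2 and 3 without gRNA2 replicate 2, 4 and 2 without control replicate 3, and 1 and 2 with the length offset, and they also moved by more than 1.5 times without control replicate 2 (6 and 5), without control replicate 1 or gRNA2 replicate 3 for the mitochondrial list (7 each) and without gRNA1 replicate 2 for initiation factors (6). Ribosome biogenesis factors had 6 of 101 lower and 0 higher (median -0.04), near the 4.75% of all genes tested that fell, and 0 with the length offset. There 3 and 1 were called without control replicates 2 and 3, and 1 and 3 without gRNA2 replicates 2 and 3.

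Cytosolic aminoacyl-tRNA synthetases, which charge tRNAs with amino acids, were split. Of 22, AARS1, WARS1 and MARS1 rose and QARS1 and KARS1 fell, with a median of -0.01. The 5 calls were 3 without control replicate 1, control replicate 3 or gRNA2 replicate 2, and with the length offset 3 rose and 0 fell. AARS1, the alanyl enzyme, had 233, 226 and 223 CPM in the controls and 273, 268 and 258 in the libraries labelled gRNA2 (1.17-fold, interval 1.11 to 1.24, adjusted p = 0.00132). MARS1, the methionyl enzyme, was at 1.14-fold (adjusted p = 0.00796), while QARS1, the glutaminyl enzyme, had 185, 167 and 173 CPM against 162, 152 and 149 (0.883-fold, adjusted p = 0.0265). The amino acid response letters TGATGNAA were in 7 of 18 of their promoters, 38.9%. Against the libraries labelled gRNA1, 8 synthetases were higher and 1 lower. In those libraries 2 fell and 0 rose against the same controls, with a median of -0.09.

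ATF4 target genes rose as a list while ATF4 mRNA itself did not pass the test. Of 40, 22 rose and 1, the lipoprotein receptor VLDLR, fell, with a median of 0.20. The library medians were 0.20, 0.20 and 0.18 against -0.02 to 0.05 in the controls. ATF4 had 227, 210 and 220 CPM in the controls and 237, 229 and 224 in the libraries labelled gRNA2, which overlapped (1.05-fold, interval 0.989 to 1.12, adjusted p = 0.314). ATF4 is regulated largely in translation, which these libraries do not measure. Of the 23 calls, 15 and 13 were made without control replicate 3 and gRNA2 replicate 2, and 12 with the length offset.

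CHAC1, which degrades glutathione, had 2.14, 2.77 and 2.99 CPM in the controls and 5.90, 6.34 and 5.95 in the libraries labelled gRNA2, more than in any control (2.29-fold, interval 1.86 to 2.81, adjusted p = 0.000172). The transcription factor ATF3 had 18.5, 20.2 and 19.9 CPM against 32.4, 30.4 and 30.0 (1.58-fold, adjusted p = 1.66e-05), and the secreted stress cytokine GDF15 had 15.4, 14.9 and 15.2 against 30.2, 26.8 and 23.3 (1.77-fold, adjusted p = 7.76e-05). DDIT3 and DDIT4, a transcription factor of the stress response and an inhibitor of mTORC1, were at 1.8-fold and 1.59-fold (adjusted p = 1.15e-05 and 2.24e-05), with 28.9% and 38.3% of their 31-base words shared with other genes.

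Other members of the list included SESN2, which senses leucine, at 1.57-fold (adjusted p = 0.0024), the cystine transporter SLC7A11 at 1.3-fold (adjusted p = 0.00241) and the serine synthesis enzyme PSAT1 at 1.17-fold (adjusted p = 0.00294). Asparagine synthetase, ASNS, had 143, 144 and 146 CPM in the controls and 161, 167 and 161 in the libraries labelled gRNA2, at 1.13-fold (adjusted p = 0.0176), and lost its call when some single libraries were left out (adjusted p up to 0.105). The most abundant ASNS transcript, the coding ASNS-202, had 48.3, 53.2 and 44.3 TPM in the controls. In the libraries labelled gRNA2 it had 44.2, 39.5 and 48.6, and the groups overlapped. Minor transcripts were higher, such as the coding ASNS-210 (means of 6.68 and 16.6 TPM) and the retained-intron ASNS-215 (5.04 and 10.8 TPM). The pseudokinase TRIB3 (1.07-fold, adjusted p = 0.354) and the serine synthesis enzyme PHGDH (1.02-fold, adjusted p = 0.819) did not pass. Against the libraries labelled gRNA1, 27 members were higher and 0 lower. In those libraries the list's median was -0.14 against the same controls.

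**Figure D2:**
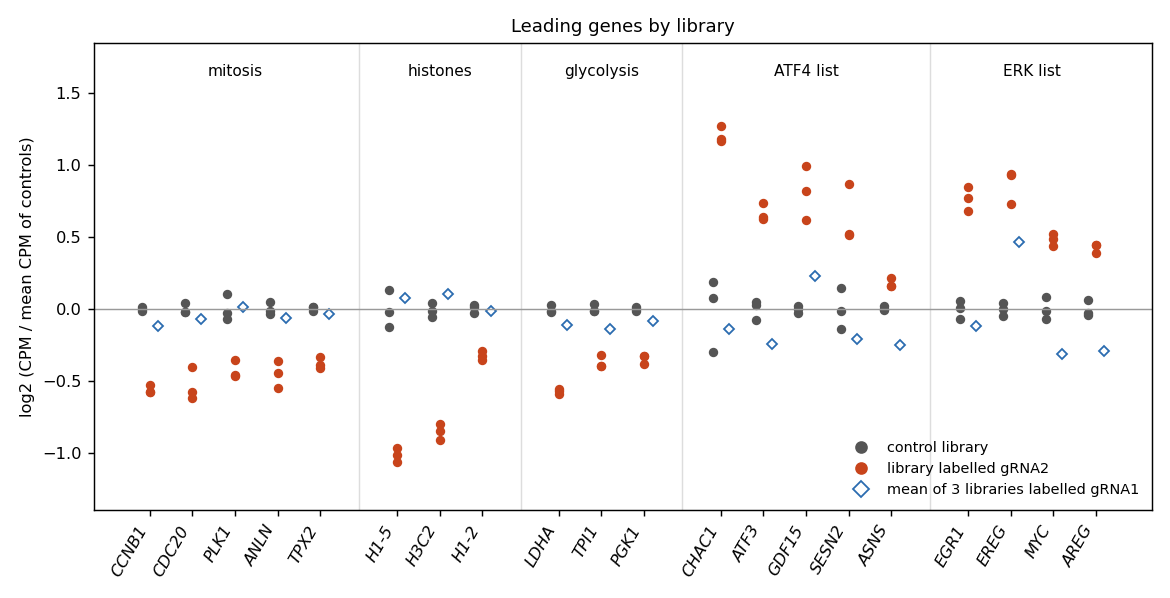
The vertical axis is log2 of CPM over the mean CPM of the 3 controls for 20 genes of 5 lists. Grey points are control libraries, orange points libraries labelled gRNA2 and open diamonds the mean of the 3 libraries labelled gRNA1; in all 20 genes the 3 orange points lie beyond the 3 grey ones, from H1-5 at 0.497-fold to CHAC1 at 2.29-fold.

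Chaperones did not rise with the ATF4 list. Of 30 endoplasmic reticulum chaperone and degradation genes, 8 fell and 2 rose (median -0.10), where 4.75% of all genes tested fell and 3.69% rose. Many chaperone genes are abundant, so the level shares are the closer background. Of protein-coding genes 12.3% fell at a mean log2 CPM of 6 to 8 and 27.6% above 8. The calcium-binding chaperone CALR had 598, 571 and 578 CPM in the controls and 487, 481 and 473 in the libraries labelled gRNA2, all lower (0.824-fold, interval 0.78 to 0.871, adjusted p = 0.000515). HSPA5, the main chaperone of this compartment, also fell, and so did HSP90B1, HYOU1 and 4 disulfide isomerases. The members that rose were the stress sensor ERN1 (1.33-fold, adjusted p = 0.000245) and HERPUD1 of the degradation pathway (1.14-fold, adjusted p = 0.0173). With gRNA1, CALR was at 0.797-fold, and the guides did not differ beyond the threshold for it (adjusted p = 0.536). The 10 calls were 5 without control replicate 2, 3 without gRNA2 replicate 2 and 1 with the length offset.

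Cytosolic and mitochondrial heat shock proteins had 8 of 23 lower and 0 higher (median -0.11), where 4.75% of all genes tested fell and 3.69% rose. With the length offset 5 fell and 0 rose. These counts too are to be read by level, as 12.3% of protein-coding genes fell at 6 to 8 and 27.6% above 8. HSPA8, the constitutive cytosolic HSP70, had 873, 894 and 889 CPM in the controls and 721, 738 and 760 in the libraries labelled gRNA2 (0.835-fold, adjusted p = 0.000675). The cochaperone HSPH1 was at 0.797-fold (adjusted p = 0.000484) and HSP90AA1 at 0.862-fold (adjusted p = 0.0023).

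Glycolysis was lower along most of its steps. Of 25 genes, 14 fell and 1 rose, with a median of -0.27, and 11 fell and 0 rose with the length offset. LDHA, lactate dehydrogenase A, had the lowest p of all genes tested. It had 1170, 1180 and 1210 CPM in the controls and 791, 802 and 810 in the libraries labelled gRNA2, a gap many times the spread within either group (0.674-fold, interval 0.645 to 0.703, adjusted p = 2.66e-07). TPI1, triosephosphate isomerase, had 255, 247 and 246 CPM against 199, 189 and 189 (0.772-fold, adjusted p = 3.76e-05), and PGK1, phosphoglycerate kinase, 366, 372 and 368 against 294, 294 and 283 (0.787-fold, adjusted p = 4.68e-05). The neuronal-type glucose transporter SLC2A3 rose to 1.15-fold (adjusted p = 0.00487, 30.4% of 31-base words shared), while SLC2A1 was among those that fell. Direct comparison with the libraries labelled gRNA1 gave 11 members lower and 3 higher. Against the same controls, 9 of the 25 fell and 0 rose in the libraries labelled gRNA1, with a median of -0.12. LDHA was at 0.921-fold there (adjusted p = 0.0239).

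Other targets of the hypoxia-inducible factors had 6 of 20 lower and 1 higher. NDRG1 had 88.2, 81.1 and 83.1 CPM in the controls and 57.7, 54.7 and 51.4 in the libraries labelled gRNA2 (0.651-fold, interval 0.601 to 0.705, adjusted p = 1.31e-05; 0.0512 with the length offset), and the mitophagy receptor BNIP3 was at 0.827-fold (adjusted p = 0.00123). VEGFA, the angiogenic factor, rose to 1.14-fold (adjusted p = 0.0272). HIF1A mRNA was at 0.98-fold (adjusted p = 0.735). The 7 calls were 4 without gRNA2 replicate 2, and with the length offset 2 fell and 0 rose.

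Genes that respond to glucose through MondoA were not uniform: TXNIP and ARRDC4, arrestins that limit glucose uptake, rose to 1.53-fold and 1.45-fold (adjusted p = 5.58e-07 and 0.00308), and ARRDC3 fell to 0.831-fold (adjusted p = 0.00668). TXNIP had 237, 249 and 247 CPM in the controls and 372, 378 and 370 in the libraries labelled gRNA2. Among 26 targets of NRF2, a transcription factor of the response to oxidants, 9 fell and 2 rose (median -0.13). The 11 calls were 7, 7 and 6 without control replicates 1, 2 and 3 and 5 without gRNA2 replicate 2. With the length offset 3 fell and 1 rose. Heme oxygenase, HMOX1, had 75.9, 70.3 and 73.8 CPM against 61.1, 55.7 and 51.3 (0.767-fold, adjusted p = 0.00136), thioredoxin reductase, TXNRD1, was at 0.864-fold (adjusted p = 0.00083), and the exporter ABCC2 rose to 1.69-fold (adjusted p = 1.53e-05). Of 8 osmotic stress genes 4 fell, AKR1B1, SLC5A3, MRPS6 and SLC6A6. MRPS6 is a mitochondrial ribosomal protein gene that overlaps SLC5A3 and is also counted among the mitochondrial ribosomal proteins, so these calls are not independent. The inositol transporter SLC5A3 was at 0.794-fold (adjusted p = 0.000985) and aldose reductase, AKR1B1, at 0.822-fold (adjusted p = 0.000547).

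Respiratory chain genes differed by genome. Of 90 nuclear genes of oxidative phosphorylation, 21 fell and 0 rose (median -0.13). Of 13 mitochondrially encoded ones, 5 rose and 0 fell (median 0.21). Of protein-coding genes, 12.3% fell and 4.83% rose at a mean log2 CPM of 6 to 8, and 27.6% fell and 4.67% rose above 8. Both counts are to be read against these shares. MT-CYB, cytochrome b, had 1340, 1390 and 1320 CPM in the controls and 1600, 1670 and 1690 in the libraries labelled gRNA2 (1.22-fold, adjusted p = 0.00106), and 1.25-fold in those labelled gRNA1. The nuclear ATP synthase subunit ATP5F1B had 561, 554 and 554 CPM against 507, 488 and 492 (0.891-fold, adjusted p = 0.00524). The nuclear count was 10, 4 and 4 without control replicates 1, 2 and 3, 3 and 8 without gRNA2 replicates 2 and 3, and 2 with the length offset. The mitochondrial count was 3 without any 1 of the controls or gRNA2 replicate 3, 8 without gRNA1 replicate 3 or gRNA2 replicate 1, 2 without gRNA2 replicate 2, and 2 with the length offset.

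Some genes went in opposite directions with the guides. Both guides share the 3 controls, so their folds are given side by side. Called in both and opposite in sign were 30 genes, a choice that fixes a difference between the guides, so no test of it is given. MYC was at 1.4-fold with gRNA2 and 0.806-fold with gRNA1. ATF3 was at 1.58-fold and 0.843-fold, TXNIP at 1.53-fold and 0.859-fold and SLC5A3 at 0.794-fold and 1.42-fold. The mitochondrial ribosomal protein gene MRPS6, which overlaps SLC5A3 in the genome, was at 0.841-fold and 1.46-fold, and reads of overlapping genes may be split.

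**Figure D3:**
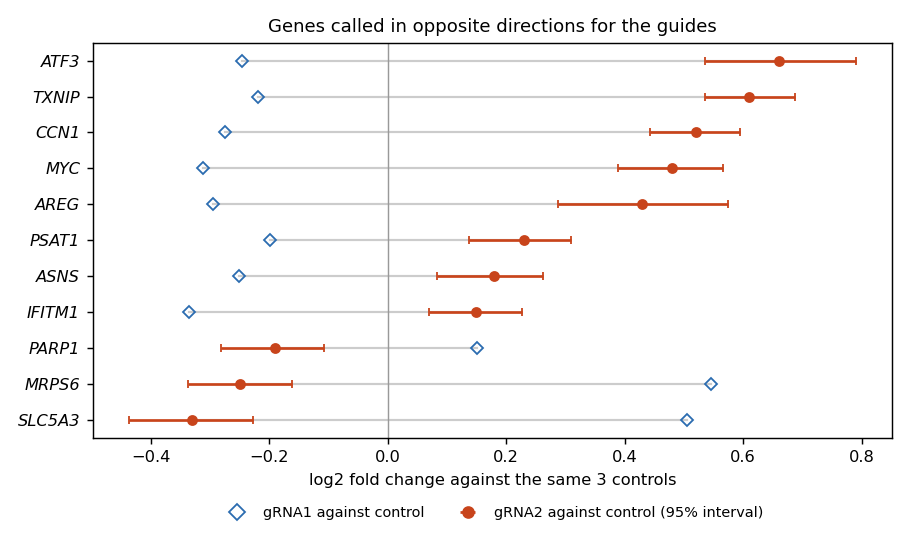
The horizontal axis is the log2 fold change against the same 3 controls for 11 named genes called in both comparisons with opposite sign: orange points with bars are the libraries labelled gRNA2 with the 95% interval, and open diamonds those labelled gRNA1. The first 8 genes, ATF3 to IFITM1, lie right of 0 with gRNA2 and left of 0 with gRNA1, and PARP1, MRPS6 and SLC5A3 the other way.

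Beyond the lists, some of the largest rises among genes with a mean log2 CPM of at least 2 were in genes of low level. RELN, a secreted matrix glycoprotein of the developing brain, had 2.46, 2.00 and 2.99 CPM in the controls and 8.62, 9.20 and 9.55 in the libraries labelled gRNA2 (3.68-fold, interval 3.04 to 4.46, adjusted p = 1.95e-06), and 4.99-fold in those labelled gRNA1. ENTREP1 was at 2.38-fold (adjusted p = 3.54e-06), the bradykinin receptor BDKRB2 at 2.05-fold (adjusted p = 6.23e-05) and the red cell skeleton protein SPTB, spectrin beta, at 1.97-fold (adjusted p = 1.21e-06). For ENTREP1 and BDKRB2 the guides did not differ beyond the threshold (adjusted p = 0.938 and 0.96), and the fold of gRNA2 over gRNA1 was 0.986 and 1.01. Among genes that fell outside the lists, LOXL2, which crosslinks collagen, had 261, 245 and 237 CPM in the controls and 180, 169 and 168 in the libraries labelled gRNA2 (0.695-fold, adjusted p = 1.15e-05). The RNA helicase DHX9 had 125, 123 and 128 CPM against 95.8, 97.8 and 97.2 (0.774-fold, adjusted p = 3.12e-05; 0.0555 with the length offset).

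The direction of the calls followed gene type and level. Of 3871 long noncoding genes tested, 158 rose and 11 fell (median log2 change 0.14), and of 14018 protein-coding genes 535 rose and 913 fell (median -0.02). Among long noncoding genes with a log2 CPM of 4 to 6, 49 of 180 rose and 1 fell, and between 6 and 8 the counts were 26 and 3 of 50. Among protein-coding genes above a log2 CPM of 8, 24 of 514 rose and 142 fell. NEAT1, a nuclear RNA that builds paraspeckles, had 19200, 19800 and 19600 CPM in the controls and 23500, 23800 and 24100 in the libraries labelled gRNA2 (1.22-fold, adjusted p = 8.34e-06). MALAT1, of nuclear speckles, was at 1.08-fold with overlapping groups (adjusted p = 0.0574).

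**Figure D4:**
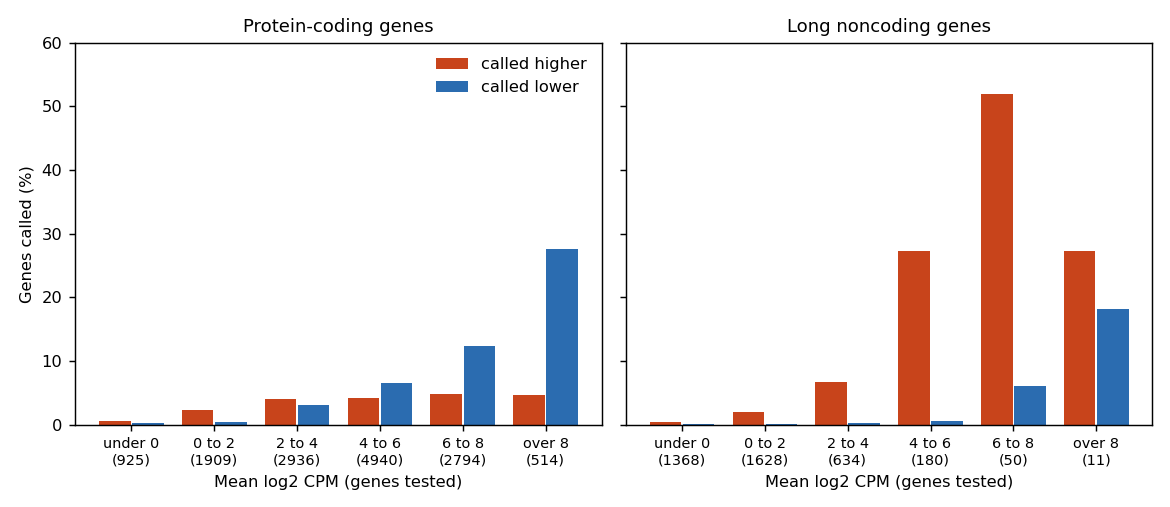
Bars give the percentage of genes called higher (orange) or lower (blue) in the libraries labelled gRNA2, by mean log2 CPM, for protein-coding genes on the left and long noncoding genes on the right, with the number tested in brackets. The share of protein-coding genes called lower grows with level to 27.6% above 8, and the share of long noncoding genes called higher reaches 52.0% between 6 and 8, where 50 were tested.

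For the libraries labelled gRNA1, in which 7.08% of the genes tested were called against the same controls (3.49% higher and 3.58% lower), the long noncoding counts were 138 higher and 11 lower (median 0.13), and gRNA2 against gRNA1 gave 48 and 27 (median 0.01). Without gRNA2 replicate 2 the 158 and 11 were 62 and 3, without control replicates 1, 2 and 3 they were 93 and 4, 86 and 3, and 80 and 2, without gRNA2 replicate 3 they were 97 and 7, and with the length offset 37 and 3. When protein-coding genes were fitted, scaled and adjusted alone, 727 rose and 740 fell. Length also went with direction: among the 3728 protein-coding genes of shortest effective length with a log2 CPM of at least 2, 94 rose and 328 fell, and among the 3728 longest 240 and 299. The part of gene length in the results was not tested apart from the offset.

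Transcripts of protein-coding genes with a retained intron had a larger share of TPM in the libraries labelled gRNA2. Such transcripts keep an intron of the mature mRNA, are mostly held in the nucleus or degraded, and were assigned by Salmon from the GENCODE 29 annotation. The share was 13.34%, 13.19% and 13.22% in the controls and 14.17%, 14.13% and 13.96% in the libraries labelled gRNA2, with no overlap, a difference of 0.841 points (exact permutation test, two-sided p = 0.1, the smallest that 3 against 3 allows). The libraries labelled gRNA1 lay between, at 13.43%, 13.39% and 13.59%. Protein-coding transcripts had 73.4% ± 0.199 and 71.9% ± 0.192 (SD, n = 3 each, exact permutation p = 0.1). Transcripts subject to nonsense-mediated decay, the pathway that removes mRNAs with early stop codons, had 4.05% ± 0.0169 and 4.25% ± 0.0838 (exact permutation p = 0.1).

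The shift was spread over genes. Of 5362 genes of at least 5 TPM with a retained-intron class above 0 in all 9 libraries, the share of that class was higher in 3510 (65.5%) and lower in 1852, with a median of 0.86 points. All 3 libraries labelled gRNA2 were above all 3 controls in 651 of them (12.1%) and below in 172 (3.21%). Counted in reads, the share of retained-intron transcripts was 7.46% ± 0.0128 and 8.07% ± 0.0416, that of long noncoding genes 8.53% ± 0.0871 and 9.49% ± 0.0554 and that of mitochondrially encoded genes 5.50% ± 0.159 and 6.01% ± 0.212 (SD, n = 3 each, exact permutation p = 0.1 for each). These shares moved with the gene counts above, and their part in them was not tested. Without MALAT1 and NEAT1 the long noncoding share was 3.06% ± 0.0715 and 3.20% ± 0.135 (exact permutation p = 0.2).

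Of the genes that act on splicing, 12 of 39 spliceosome components fell and 0 rose (4.75% and 3.69% of all genes tested). Of protein-coding genes, 6.6%, 12.3% and 27.6% fell at a mean log2 CPM of 4 to 6, 6 to 8 and above 8. The median of the spliceosome list was -0.12, and the Sm protein SNRPD2 was at 0.855-fold (adjusted p = 0.00491). The number called was 1 without gRNA2 replicate 2, 5, 7 and 2 without control replicates 1, 2 and 3, 7 without gRNA2 replicate 3 and 1 with the length offset. Of 38 hnRNP and other regulators 8 fell, including HNRNPA1 (0.905-fold, adjusted p = 0.013), a number that was 5, 2 and 1 without control replicates 1, 2 and 3, 5 without gRNA1 replicate 1 or 2, 1 and 5 without gRNA2 replicates 2 and 3, and 2 with the length offset.

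Usage within genes was tested with transcripts summed by class (protein-coding, retained intron, nonsense-mediated decay, other) in classes above 0 in all 9 libraries, a form of the test chosen after the data were seen. Of 8417 genes, 12 (0.143%) passed (edgeR's diffSpliceDGE, Simes p per gene, Benjamini-Hochberg adjusted), and in 11 of them a single class passed as well. Leaving out each of the 9 libraries in turn gave 8 to 17 genes. A retained-intron class rose in 2 of the 11 and the decay class in 7, and none of these 9 classes fell.

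GARS1, the glycyl-tRNA synthetase (chr7:30594681-30634033, plus strand), had 25.4%, 24.3% and 24.3% of its TPM in retained-intron transcripts in the controls and 31.4%, 30.5% and 33.1% in the libraries labelled gRNA2 (adjusted p = 0.00338). All 3 were higher, with 487, 629 and 580 reads against 981, 1031 and 717, and it stayed past the threshold with each library left out. The level of these transcripts went from 39.7, 38.6 and 38.9 TPM to 56.1, 56.9 and 65.4. The whole gene went from a mean of 158 TPM to 188, and its counts, a different unit, were at 1.06-fold (adjusted p = 0.135). In ASNS (chr7:97852118-97872542, minus strand) the retained-intron share went from between 14.8% and 15.3% in the controls to 19.1%, 24.9% and 22.4% (adjusted p = 0.0084), and the libraries labelled gRNA1 had a mean of 15.3%. That call held in 5 of 9 fits with a library left out.

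The class of other transcripts grew in IARS1, the isoleucyl-tRNA synthetase, from 49.3%, 48.8% and 46.9% to 54.5%, 54.2% and 55.9% (adjusted p = 0.00319; called in 8 of 9 fits with a library left out), and the libraries labelled gRNA1 had 48.1%. MYO5B, a myosin of vesicle transport, had 1.48%, 1.42% and 1.67% of its TPM in that class in the controls and 12.4%, 14.1% and 11.7% in the libraries labelled gRNA2 (adjusted p = 0.00014), from 4, 6 and 5 reads to 49, 71 and 32.

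In the decay class, MBD3, of the NuRD chromatin complex, went from 1.17%, 2.26% and 1.11% to 11.1%, 14.5% and 7.96% (adjusted p = 7.98e-05), starting from 1, 3 and 1 reads. The libraries labelled gRNA1 had 14.2%. ELP6, an Elongator subunit, went from 2.47%, 1.90% and 1.35% to 20.6%, 11.7% and 16.3% (adjusted p = 0.000938). For TOP2B, a topoisomerase that nondividing cells also express, the share was 4.82%, 8.77% and 8.86% against 12.6%, 11.9% and 20.7% (adjusted p = 0.0084; called in 7 of 9 fits). RHOBTB3, FANCD2, PIGB and HSP90AA1 passed with all libraries, at adjusted p between 0.0084 and 0.00975, and in 4, 5, 5 and 6 of 9 fits. The groups overlapped for FANCD2 and for PIGB, and HSP90AA1 moved by 1.1 points.

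**Figure D5:**
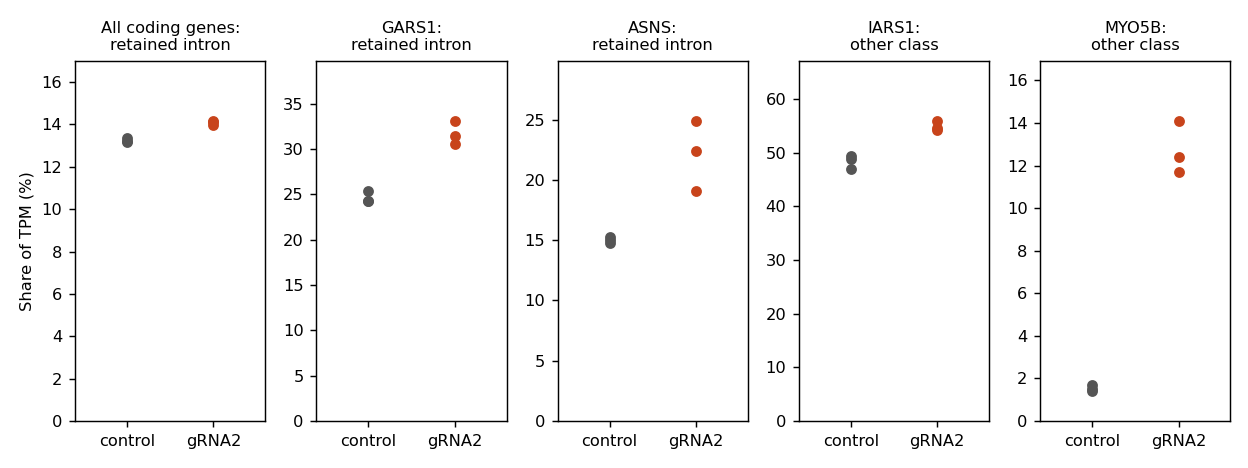
Each panel gives the share of TPM (%) held by a transcript class in the 3 control libraries (grey) and the 3 libraries labelled gRNA2 (orange), on axes from 0. From left, the retained-intron class over all nuclear protein-coding genes, of GARS1 and of ASNS, and the other class of IARS1 and of MYO5B; the groups do not overlap in any panel.

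Single transcripts gave more calls that rested on weaker estimates. Tested 1 by 1, 52 of 11706 genes (0.444%) passed with a shift of at least 10 points. In 47 of the 52 every called transcript was estimated at 0 in all 3 libraries of a group, and 2 had no estimate of 0. On simulated counts with no change this test also made calls, so single transcripts are given as values. Salmon's estimates move between near-identical transcripts: among 9490 genes of at least 5 TPM, 2105 (22.2%) had a transcript at 0 in 1 control and at 10% or more of the gene in another. HSPD1, the mitochondrial chaperonin, shows a swap between coding transcripts: HSPD1-202 had 32.4%, 25.5% and 42.4% of the gene's TPM in the controls and 12.3%, 14.1% and 7.97% in the libraries labelled gRNA2, while HSPD1-201 had 15.9%, 27.1% and 10.1% against 35.0%, 36.7% and 42.1%. The gene's own level was at 0.929-fold (adjusted p = 0.0725). FURIN, a protease that processes precursors, was not among the 52 genes. It was called when the test was limited to transcripts above 0 in all 6 libraries, which gave 5 genes. FURIN-201 had 34.6%, 32.0% and 26.8% of the gene's TPM in the controls. In the libraries labelled gRNA2 it had 8.56%, 7.29% and 7.46%, and its level was 0.927 to 4.66 TPM over the 6 libraries.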

How the data were processed

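RNA of 9 libraries of H1975 cells was measured, 3 per group by title. The authors deposited, per transcript, estimated counts and TPM from Salmon 1.4.0 with hg38 (per the submitters' processing notes and the file headers). The strand setting is not given in the sources used here. Estimated counts were summed to 56823 genes with GENCODE 29 (95.71% of 211939 transcripts matched), rounded, filtered (filterByExpr), TMM-scaled and tested in 1 fit of the 9 libraries with edgeR 4.0.16's quasi-likelihood test (R 4.3.3, Benjamini-Hochberg, adjusted p of 0.05). Class and transcript usage used diffSpliceDGE. The scripts were tested on simulated data. Gene symbols were updated from RefSeq. The members and lists were chosen with earlier results of these data known. Named genes were the target, TRIM28, EGFR and MYC, called genes with non-overlapping groups and a mean log2 CPM of at least 2 that had the largest changes (15 each way) or lowest p (10 each way), up to 4 called members per list and direction, and others chosen after their values were seen: among them ASNS, ATF4, CDK1, CHAC1, CCND1, DUSP6, FOXM1, GARS1, HIF1A, HSPD1, IARS1, MALAT1, NEAT1, PHGDH, PSAT1, SESN2, SLBP, TOP2A and TRIB3, and all genes of the class usage test and single transcripts. Alternatives were DESeq2 1.42.0, limma 3.58.1, RLE scaling, no filter, a length offset, protein-coding genes alone, a 1.2-fold minimum, a replicate block, 6 libraries only and leaving out each library. The correlations of deviations between same-numbered libraries of gRNA2 and control were 0.073, 0.008 and 0.032. Between different numbers they lay between -0.067 and 0.035. Such values cannot settle whether the numbers pair the libraries, and the main fit used no pairing.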

Additional observations from a re-analysis of the deposited data

Results flagged for a closer look

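For 11 named genes the fold against the control was called in opposite directions for the guides, and both folds use the same 3 controls; the choice of genes fixes that the guides differ, so the ratios are a description. The ratio of the libraries labelled gRNA2 to those labelled gRNA1 was 1.88 for ATF3, 1.78 for TXNIP, 1.73 for CCN1, 1.73 for MYC, 1.65 for AREG, 1.4 for the interferon-stimulated gene IFITM1, 1.35 for ASNS and 1.34 for PSAT1. It was 0.785 for the repair enzyme PARP1, 0.578 for MRPS6 and 0.561 for SLC5A3.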

How the results depend on the processing

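Against 1659 genes called for gRNA2 against the control and 1222 for gRNA2 against gRNA1, the transcript length offset gave 434 and 446 and a minimum of 1.2-fold gave 73 and 77. Leaving out 1 library gave 671 to 1817 and 575 to 1215 genes (690 and 641 for the second comparison without gRNA1 replicates 1 and 2). Fitting protein-coding genes alone split their calls into 727 higher and 740 lower against 535 and 913, and DESeq2 split all genes into 570 and 995. With replicate number as a block 1582 genes and 34 transcript-usage genes were called, and whether the same numbers pair the libraries is not settled. The 52 transcript-usage genes became 261 with any change, 18 at 20 points, 15 with limma, 33 for transcripts of at least 1 TPM, 5 for transcripts above 0 in all 6 libraries, 8 with transcripts summed by class and 3 with classes above 0 in all 9 libraries, and 54 to 78 with 1 library left out. Counted in reads in place of TPM, the difference in share was 0.122 points for decay transcripts, 0.218 for processed transcripts, -0.957 for protein-coding transcripts, 0.616 for retained introns, 0.953 for long noncoding genes and 0.503 for mitochondrially encoded genes, and it turned from 1.6 to -0.727 for protein-coding genes. The median of the mitotic list was -0.33 with the offset, -0.28 with protein-coding genes alone and -0.32 to -0.28 with 1 library left out, that of histones -0.48 to -0.42 with 1 library left out, that of glycolysis -0.22 with the offset and -0.29 to -0.22 with 1 library left out, and that of ribosomal proteins -0.08 with protein-coding genes alone. With the offset the sign turned for the RNA polymerase I and III list (0.01), PLK4 (0.04) and ORC4 (-0.08), and for interferon-stimulated genes it turned with DESeq2 (-0.01) and without control replicate 3 (-0.02 to 0.04 over the libraries left out). The cause was not tested. Among the named genes, 112 lost their call with the offset and 72 without gRNA2 replicate 2. Depth limits genes of few reads: of 3017 genes with a mean log2 CPM under 0, 12 rose and 7 fell.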
